A study of Mus musculus with 7 samples.

Results

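A total of 117 genes kept every *Brn3b* cKO mouse on one side of every control mouse in RNA-seq of the dorsal midbrain, 52 of them lower and 65 higher in the cKOs. They were selected on the measured values themselves. Counts were scaled to CPM, that is to counts per 1000000 counts on genes in each library, and a gene had to reach a mean of at least 1 CPM over the 7 libraries. A gene was taken as lower when its highest cKO value was below 0.8 times its lowest control value, and as higher when its lowest cKO value was above 1.25 times its highest control value. *Brn3b* (*Pou4f2*), *Tac2* and the genes of chromosomes X and Y, of which 3 lower and 4 higher ones met the rule, were set aside. Of the 52636 genes counted, 16445 could have been selected, so the members make up 0.316% (lower) and 0.395% (higher) of these. Because the rule used the genotypes, the separation of the members is a description and carries no test.

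The study compared 3 control mice (A2, A4 and A6), labelled Heterozygote and carrying *Brn3b* flox/+ with *En1-Cre*, with 4 cKO mice (B1, B7, B8 and B9), labelled Homozygote and carrying *Brn3b* flox/- with *En1-Cre*. The 2 genotypes thus share 1 conditional allele and the Cre driver, and differ in the other allele, which is wild type in controls and null in cKOs. Recombination of the conditional allele removes *Brn3b* and switches on a human placental alkaline phosphatase reporter in both genotypes, and *En1-Cre* is active in the midbrain and hindbrain. Tissue was taken at P2 from B7 and B9, at P3 from A4 and at P4 from A2, A6, B1 and B8. No control was as young as B7 and B9.

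*Brn3b* encodes a POU-domain transcription factor that is best known for the survival and axon growth of retinal ganglion cells, and that also marks subsets of neurons in the superior colliculus and periaqueductal gray. Transcription factors of this family bind AT-rich sites and can raise or lower the genes near them. In a bulk tissue sample, fewer cells of a type and less RNA per cell cannot be told apart, and this holds for every value below.

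The libraries held 23588248 to 87572085 counts on genes, the deepest being the P2 cKO mice B7 and B9. A further 30.98% to 38.18% of the counted read pairs fell on no single gene and were left out. *Pou4f2* was at 47.5, 47.0 and 47.2 CPM in A2, A4 and A6 and at 9.64, 9.19, 11 and 11.2 CPM in B1, B7, B8 and B9, the direction that the labels require. Counts on the gene thus remained in the cKOs, with a mean of 10.3 CPM against 47.2 CPM, whereas RT-qPCR in the paper, on other mice, found almost no *Brn3b*. The source of these counts was not tested. A2 was the only mouse with *Xist* above 100 CPM and without counts on Y-linked genes, and the 6 others had the opposite pattern. B8 stood apart from the other cKO mice: without it, 2987 genes would have passed the rule as lower and 2267 as higher. All 52 lower and all 65 higher members were among them, so the members are those genes that also moved in B8. The controls set the counts as well. Without A2, the rule gave 191 lower and 289 higher genes, without A4 113 and 100, and without A6 107 and 191.

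The members moved by a median log2 ratio of −1.05 in the lower set (range −1.87 to −0.55) and of 1.24 in the higher set (range 0.45 to 3.03), computed from the group means of CPM. Over all genes of at least 1 CPM the median was −0.04. Most members were weakly expressed. The mean over the 7 libraries was under 5 CPM in 40 of the 52 lower and 51 of the 65 higher members, and reached 10 CPM in 5 and 7 of them. A count under 30 occurred in at least 1 library for 19 lower and 37 higher members, so single values of these carry a large counting error.

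**Figure D1:**
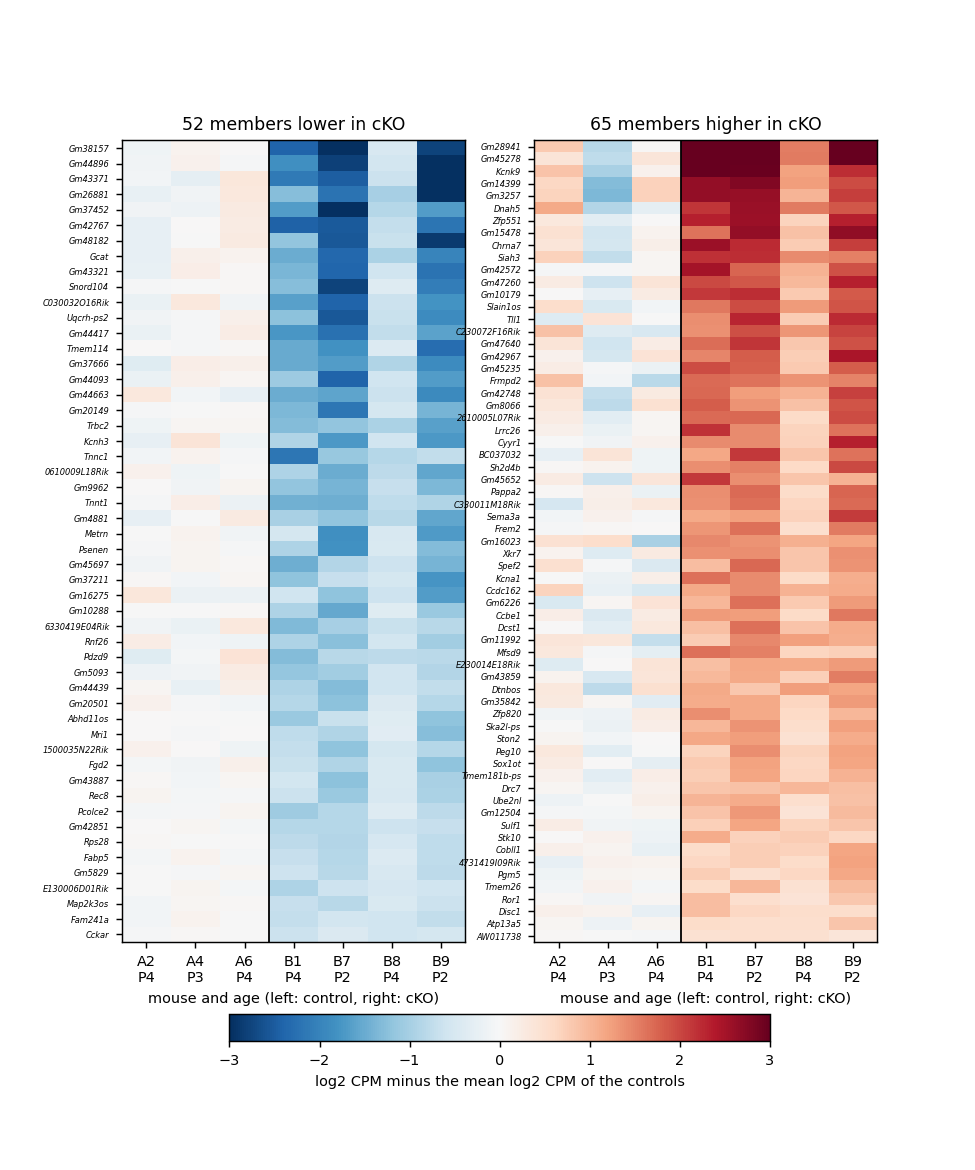
Heat map of the 52 lower and 65 higher members (rows) in the 7 mice (columns), as log2 CPM minus the mean log2 CPM of the 3 controls. Colours stop at −3 and 3. The B8 column is paler than the B1, B7 and B9 columns in both sets, and the controls of the higher set vary more than those of the lower set.

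Among the lower members that encode proteins, *Gcat* showed the widest separation. *Gcat*, which encodes the mitochondrial enzyme that turns a product of threonine breakdown into glycine, spans 79030874 to 79038353 of chromosome 15 in GRCm38 (plus strand). Its level was 10.2, 13.5 and 13.2 CPM in A2, A4 and A6, and 4.37, 2.39, 6.37 and 3.09 CPM in B1, B7, B8 and B9. The highest cKO value, in B8, stayed well below the lowest control value. Controls averaged 12.3 ± 1.81 CPM (SD, n = 3) and cKOs 4.06 ± 1.75 CPM (SD, n = 4), or 33.0% of the control level.

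The lower set also held 2 genes of striated muscle. *Tnnc1* and *Tnnt1* encode the calcium-binding and the tropomyosin-binding troponin of slow muscle. *Tnnc1* was at 1.95, 2.23 and 2.03 CPM in the controls and at 0.462, 0.944, 1.15 and 1.23 CPM in B1, B7, B8 and B9. *Tnnt1* was at 2.54, 2.99 and 2.3 CPM and at 0.960, 0.944, 1.53 and 1.38 CPM in the same order. Both were lowest in B1 or B7, and both rested on few reads, with lowest counts of 13 and 27. Other slow muscle genes were no members: *Myh7*, the slow myosin heavy chain, was at 2.84 to 3.80 CPM in controls and 2.60 to 3.60 CPM in cKOs, which overlap. *Tnnc1* also lies inside *Nisch*, a broadly expressed gene on the opposite strand that was at 473 to 484 CPM in controls and 487 to 534 CPM in cKOs.

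Other lower members encode a channel, a receptor and a secreted factor. *Kcnh3*, which encodes a voltage-gated potassium channel of forebrain neurons, was at 5.04, 7.84 and 5.46 CPM in the controls and at 3.20, 1.81, 3.95 and 1.80 CPM in B1, B7, B8 and B9. *Cckar*, the cholecystokinin A receptor, was at 1.40, 1.48 and 1.43 CPM and at 0.925, 1.06, 0.943 and 0.993 CPM. *Cckar* had the smallest log2 ratio of the lower set, at −0.55, but its values varied little within each genotype, with an SD of 0.0434 CPM in controls and 0.0616 CPM in cKOs. The neuropeptide gene *Cck* and the second receptor gene *Cckbr* were no members: *Cck* was at 14.2 to 19.8 CPM in controls and at 9.25, 5.86, 15.8 and 5.12 CPM in B1, B7, B8 and B9, so that B8 lay within the control range and the other cKOs below it. *Cckbr* was at 12 to 14.1 CPM in controls and 5.37 to 11.3 CPM in cKOs, which do not overlap but are closer than the margin of the rule. *Metrn*, which encodes the secreted glial and axonal growth factor meteorin, was at 5.26, 5.62 and 4.93 CPM in the controls, at 3.66 and 3.80 CPM in the P4 cKO mice B1 and B8, and at 1.48 and 1.61 CPM in the P2 cKO mice B7 and B9. *Metrn* was thus highest in the controls, lower in the P4 cKOs and lowest in the P2 cKOs.

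Further lower members serve metabolism, protein cleavage and chromosome structure. *Fabp5*, an intracellular fatty acid-binding protein of radial glia and other precursors, had the highest CPM of all members, with 185, 205 and 184 CPM in the controls and 119, 106, 144 and 113 CPM in B1, B7, B8 and B9. With at least 3335 reads per library it was also the most precisely counted, and its cKO mean was 62.8% of the control level. *Fabp5* has processed pseudogenes that can take part of its reads, so its absolute level is uncertain. *Mri1*, an enzyme of the methionine salvage pathway, averaged 20.2 ± 0.325 CPM in controls (SD, n = 3) against 11.7 ± 3.14 CPM in cKOs (SD, n = 4).

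*Rec8*, a cohesin subunit of meiotic chromosomes, was at 17.5, 15.8 and 15.9 CPM in the controls and at 10.5, 7.57, 11.8 and 8.44 CPM in the cKOs. *Psenen*, the smallest subunit of the gamma-secretase complex that cleaves Notch and the amyloid precursor protein, was at 6.02, 6.51 and 6.02 CPM and at 3.24, 1.74, 4.51 and 2.51 CPM. It was 1 of 7 gamma-secretase genes looked at, and the 6 others were no members: *Ncstn*, which encodes the large subunit nicastrin, was at 73.9 to 82.0 CPM in controls and at 75.3 to 91.1 CPM in cKOs.

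*Fgd2*, an exchange factor for Cdc42, was at 14.6, 14.3 and 17.0 CPM in the controls and at 9.53, 8.20, 11.1 and 6.60 CPM in B1, B7, B8 and B9. *Rnf26*, an endoplasmic reticulum ubiquitin ligase, kept a mean of 52.5% of the control level, and *Rps28*, a protein of the small ribosomal subunit, kept 60.4%. *Rps28* stood at only 3.14 CPM in cKOs and 5.19 CPM in controls. Ribosomal protein genes have many processed copies to which reads can be lost, so this value covers only the reads that the authors' counting gave to the gene itself. *Fam241a*, *Pdzd9*, *Gm4881* and *Tmem114* are less well known and kept 63.8%, 51.6%, 45.7% and 39.7% of the control level. *Pcolce2*, an enhancer of procollagen processing, was the member closest to the limit, with a highest cKO value of 3.29 CPM in B8 against a lowest control value of 4.11 CPM. Just outside the limit lay *Ap4b1*, with 3.80 CPM against 4.73 CPM.

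**Figure D2:**
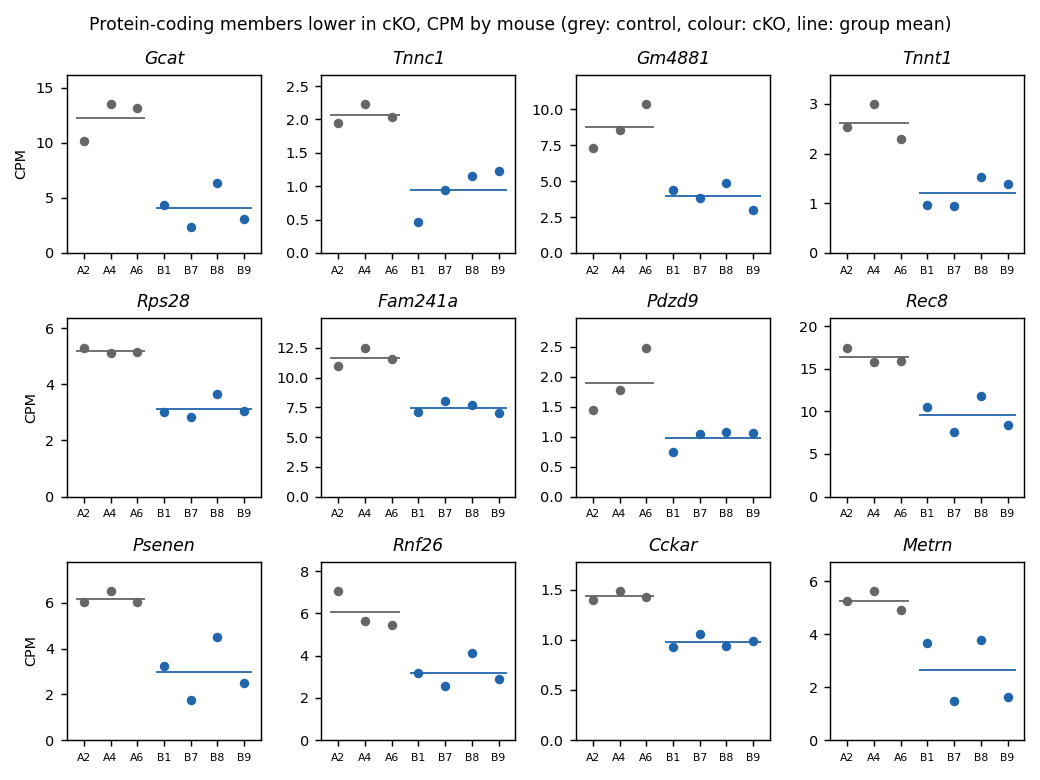
CPM (vertical axes, from 0) of the 12 protein-coding members with the widest separation in the lower set, by mouse (horizontal axes). Grey points are controls, coloured points cKOs and lines group means. In *Gcat* the controls sit at 10.2 to 13.5 CPM and the cKOs at 2.39 to 6.37 CPM, with B8 the highest cKO.

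The constant region of the T cell receptor beta chain, *Trbc2*, had the widest separation of the whole lower set. It was at 3.35, 3.81 and 3.84 CPM in the controls and at 1.49, 1.62, 1.89 and 1.18 CPM in B1, B7, B8 and B9, with 42 to 154 reads per library. Other T cell markers were of low level: *Cd3d*, *Cd3e* and *Cd3g* did not exceed 0.151 CPM in any library and *Trbc1* was at 0 in all controls. *Trac*, the constant region of the alpha chain, was at 0.763, 1.11 and 0.828 CPM in the controls and at 0.462, 0.443, 0.637 and 0.343 CPM in B1, B7, B8 and B9, below every control, but its mean was under the limit of 1 CPM. *Trac* and *Trbc2* thus differed in the same direction. The summed level of 8 T cell genes, most of which came from *Lck*, was 17.7 to 20.8 CPM in controls and 10.5 to 15.3 CPM in cKOs. *Lck* is also expressed in neurons. The part of T cells in the level of *Trbc2* was not tested.

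The lower set was rich in transcripts that code for no known protein. Of the 52 members, 18 (34.6%) were protein-coding and 16 (30.8%) were of the class TEC, which GENCODE uses for transcripts still to be experimentally checked, often unspliced pieces of sequence. Of the 16445 genes that could have been selected, 82.0% were protein-coding and 4.36% were TEC. In the higher set 35 of 65 (53.8%) were protein-coding and 7 (10.8%) were TEC. Over all 716 TEC genes with a count in every library, B1, B7 and B9 had median shifts from the controls of −0.20, −0.31 and −0.36 on the log2 scale, against 0.01 in B8. The median of the whole class was thus below 0 in the 3 other cKO mice and near 0 in B8. For the 13481 protein-coding genes these medians lay between −0.08 and 0.01. The controls also differed in this class, from −0.12 in A4 to 0.19 in A6.

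Most lower TEC members lay inside protein-coding genes. In all, 15 non-coding lower members, nearly all TEC, were within a protein-coding gene on its own strand. These 13 genes include *Dst*, *Chl1*, *Nrcam*, *Cntnap2* and *Kcnip4*. *Gm38157*, within the gene of the cytoskeletal linker dystonin (*Dst*) on chromosome 1, had the lowest log2 ratio of the set, −1.87. It was at 7.25, 8.54 and 8.05 CPM in the controls and at 1.49, 0.384, 5.68 and 1.15 CPM in B1, B7, B8 and B9. *Dst* itself was higher in 3 of the cKO mice, with 185 to 269 CPM in controls, 495, 618 and 474 CPM in B1, B7 and B9, and 257 CPM in B8. *Gm44439*, within the cell adhesion gene *Chl1*, averaged 6.01 ± 0.834 CPM in controls (SD, n = 3) against 3.27 ± 0.648 CPM in cKOs (SD, n = 4), whereas *Chl1* was at 509 to 591 CPM in controls and at 1027, 1290, 533 and 1103 CPM in B1, B7, B8 and B9. *Gm48182* in the adhesion gene *Nrcam* was at 4.24, 5.0 and 6.02 CPM in the controls and at 2.21, 0.870, 3.18 and 0.685 CPM in the cKOs, and *Nrcam* at 154 to 184 CPM in controls and 301, 375, 162 and 339 CPM in the cKOs.

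Over the 15 members the median log2 shifts of B1, B7, B8 and B9 were −1.5, −2.37, −0.64 and −1.79. Over the 13 genes around them they were 0.51, 0.67, −0.02 and 0.71 in the same order. In 10 of these 13 genes B1, B7 and B9 were all above the control mean. The share of all genes with this pattern, and of all TEC genes that lie inside a protein-coding gene, was not determined. In the higher set, 7 non-coding members overlapped a protein-coding gene on its own strand. B1, B7 and B9 were all above the control mean in 2 of these 7 genes, *Fryl* and *Unc5d*. Which RNA the reads of such members of either set came from was not tested.

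The remaining lower members were 5 antisense transcripts, 5 pseudogenes, 3 lincRNAs and 5 of other classes. *Gm10288*, a processed pseudogene, had the highest level per length of all members, with a mean of 67.1 CPM per kb of exon over the 7 libraries, followed by *Fabp5* with 42.3 CPM per kb. It was at 48.7, 48.8 and 50.6 CPM in the controls and at 26.1, 17.1, 38.2 and 22.7 CPM in B1, B7, B8 and B9. Its reads can be shared with the gene it was copied from. The small nucleolar RNA *Snord104*, only 70 bases long, was at 2.37, 2.40 and 2.48 CPM and at 0.996, 0.354, 1.86 and 0.571 CPM. RNA of this length is largely lost in a polyA library, and its count is uncertain.

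The higher set included 3 genes of motile cilia. *Drc7* (chromosome 8, 95055103 to 95078141, plus strand), a part of the regulatory complex that links the dyneins of cilia and flagella, was at 1.82, 1.56 and 1.92 CPM in A2, A4 and A6. In B1, B7, B8 and B9 it was at 3.13, 3.23, 3.49 and 3.29 CPM, close together and with B8 the highest. *Dnah5*, a heavy chain of the outer dynein arm, was at 2.29, 0.569 and 0.865 CPM and at 4.59, 6.3, 3.08 and 3.77 CPM. *Spef2*, a protein of the central pair of the axoneme, was at 2.71, 1.88 and 1.43 CPM and at 3.70, 6.42, 3.46 and 4.93 CPM. In *Dnah5* and *Spef2*, A2 was the highest control and came closest to the cKOs.

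These 3 were the members among 15 measured genes of motile cilia, a list drawn up after the members were known. The list summed to 83.5 to 118 CPM in controls and to 124 to 173 CPM in cKOs, with 124 CPM in B8, and its median log2 ratio was 0.84. Several genes of the list did not separate. *Foxj1*, the transcription factor that switches on motile ciliogenesis, was at 11.5 to 21.3 CPM in controls and at 14.1 to 24.2 CPM in cKOs. *Rsph1*, a radial spoke protein, was at 3.12 to 6.32 CPM and at 2.99 to 4.92 CPM. Motile cilia are borne by ependymal cells and the choroid plexus, both next to the ventricle. The defining choroid plexus marker *Ttr* was at 0 to 0.643 CPM in controls and 0 to 0.160 CPM in cKOs, *Kl* was at 1.40 to 2.37 CPM and 2.39 to 2.53 CPM, and *Aqp1* at 1.10 to 1.19 CPM and 0.457 to 0.818 CPM, so that the genes of this list differed in both directions.

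*Sema3a*, which encodes a secreted semaphorin that repels axons, was the only member on a list of 52 axon guidance and adhesion genes. It spans 13125414 to 13602565 of chromosome 5 (plus strand). Its level was 2.67, 3.09 and 2.78 CPM in the controls and 6.22, 6.68, 4.59 and 12.3 CPM in B1, B7, B8 and B9. The lowest cKO, B8, was clearly above the highest control, and B9 stood above the other cKOs. Controls averaged 2.85 ± 0.219 CPM (SD, n = 3) and cKOs 7.44 ± 3.34 CPM (SD, n = 4), a 2.61-fold difference. The genes of its receptor were no members: *Nrp1*, the ligand-binding subunit neuropilin-1, was at 55.7 to 65.1 CPM in controls and 55.4 to 85.0 CPM in cKOs. *Plxna2*, a signaling subunit, was at 50.8 to 68.8 CPM in controls and 125, 156 and 142 CPM in B1, B7 and B9, and at 69.9 CPM in B8. The groups of *Plxna2* did not overlap, but B8 missed the margin of 1.25.

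Ion channels were found among the higher members as well. They are named here for their known roles, with their values in view. *Chrna7*, the alpha7 subunit of the nicotinic acetylcholine receptor, was at 2.67, 1.44 and 2.33 CPM in the controls and at 12.3, 9.81, 3.52 and 8.80 CPM in B1, B7, B8 and B9. *Kcnk9*, a leak potassium channel that sets the resting potential, was at 3.05, 0.866 and 1.84 CPM and at 16.4, 13.2, 3.92 and 7.89 CPM. In both genes B8 was far nearer to the controls than to the other cKOs. The log2 ratios were 2.0 and 2.43, and from the P4 mice alone they were 1.66 and 2.05.

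*Kcna1*, a voltage-gated potassium channel of axons, was at 1.53, 1.36 and 1.73 CPM in the controls and at 4.80, 4.07, 2.29 and 3.27 CPM in the cKOs. *Lrrc26*, an auxiliary subunit of large-conductance calcium-activated potassium channels, was at 0.763, 0.594 and 0.715 CPM and at 3.09, 1.84, 1.10 and 2.11 CPM. Their directions differ from that of the potassium channel gene *Kcnh3* in the lower set.

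Imprinted genes include *Kcnk9*, which is expressed mainly from the maternal copy in the brain, and *Peg10*, a paternally expressed gene derived from a retrotransposon. *Peg10* had the highest CPM of the higher members. It was at 62.3, 40.3 and 49.5 CPM in the controls and at 78.7, 131, 78.8 and 116 CPM in B1, B7, B8 and B9. Within the cKOs the P2 mice B7 and B9 were above the P4 mice, and the mean was 2.0 times the control mean.

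Another set of higher members acts outside the cell. *Frem2*, a protein of the basement membrane, was at 5.68, 5.94 and 5.87 CPM in the controls and at 14.6, 18.4, 8.25 and 17.3 CPM in B1, B7, B8 and B9. *Sulf1*, which trims sulfate groups from heparan sulfate and so tunes growth factor signaling, was at 9.84, 7.84 and 7.68 CPM and at 13.8, 19.1, 13.3 and 15 CPM. Both separated without overlap, with B7 the highest cKO and B8 the lowest.

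*Pappa2*, a protease of insulin-like growth factor-binding proteins, was 2.66-fold higher in the cKOs, *Tll1*, a tolloid-like protease of procollagen and chordin, 3.39-fold, and *Ccbe1*, a secreted factor of lymphatic growth, 2.27-fold. *Ror1*, a receptor of Wnt5a, was at 1.61, 1.46 and 1.62 CPM in the controls and at 2.95, 2.21, 2.06 and 2.73 CPM in the cKOs. The secreted proteins of the lower set, *Metrn* and *Pcolce2* among them, went in the opposite direction by selection.

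The members with roles inside the cell were more varied. *Ston2*, an adaptor for the retrieval of synaptic vesicle proteins, was at 15, 13.3 and 14.3 CPM in the controls and at 31.9, 33.7, 19.5 and 30.5 CPM in B1, B7, B8 and B9. *Atp13a5*, a P5-type ATPase of brain pericytes, was at 12.2, 10.5 and 12.5 CPM and at 17.2, 16.5, 16.6 and 20.6 CPM. Pericytes wrap the small vessels of the brain. The 8 markers of endothelium and pericytes summed to 234 to 282 CPM in controls and 265 to 294 CPM in cKOs, with a median log2 ratio of 0.41. Of these 8 markers only *Cldn5* had a lower mean in the cKOs, at 56.3 to 101 CPM in controls and 27.3 to 82.1 CPM in cKOs. The others had a higher mean. Of the pericyte genes, *Pdgfrb* was at 19.5 to 21.4 CPM in controls and 22.9 to 35.4 CPM in cKOs. *Rgs5* and *Abcc9* had log2 ratios of 0.39 and 0.86. The part of these cells in the level of *Atp13a5* was not tested. *Stk10*, a kinase that phosphorylates ERM proteins, was at 3.22, 3.51 and 2.90 CPM and at 6.94, 5.21, 5.43 and 4.94 CPM. *Atp13a5* and *Stk10* are among the members in which B8 lay with the other cKOs.

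*Xkr7*, a relative of the phospholipid scramblases, was at 5.30, 3.76 and 5.91 CPM in the controls and at 12.7, 12.8, 8.79 and 12.7 CPM in the cKOs. *Siah3*, a relative of the SIAH ubiquitin ligases, was 3.39-fold higher and *Cyyr1* 3.0-fold, both from under 2 CPM in every control. *Disc1*, a scaffold protein of neuronal development, was at 1.95, 1.88 and 1.47 CPM and at 3.31, 2.68, 2.52 and 2.51 CPM. *Dcst1*, *Sh2d4b*, *Frmpd2*, *Cobll1*, *Pgm5* and *Tmem26* were higher by 2.21-, 2.73-, 2.62-, 1.74-, 1.71- and 1.68-fold. The zinc finger genes *Zfp551*, *Zfp820* and *Gm14399* were higher by 4.33-, 2.07- and 4.10-fold. Such genes lie in clusters of near copies, so reads could be split between them, and their values are uncertain.

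**Figure D3:**
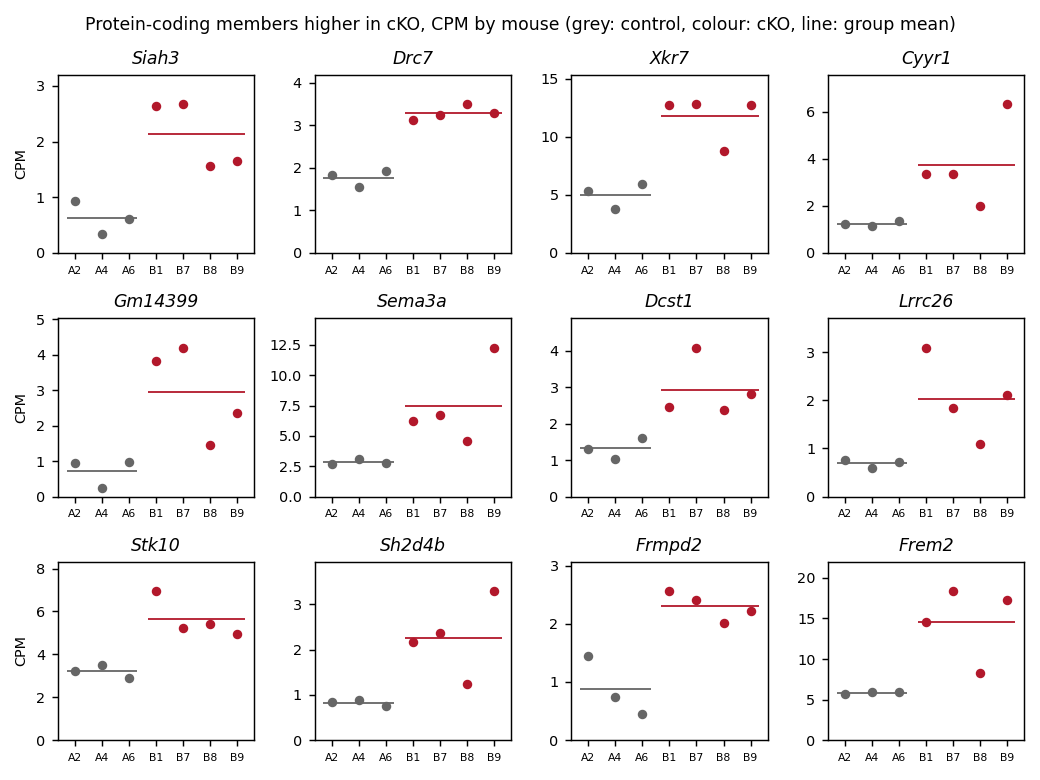
CPM (vertical axes, from 0) of the 12 protein-coding members with the widest separation in the higher set, by mouse (horizontal axes). Grey points are controls, coloured points cKOs and lines group means. *Drc7* has its 4 cKOs together at 3.13 to 3.49 CPM, while *Sema3a*, *Cyyr1* and *Frem2* spread over the cKOs with B8 lowest.

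Beside the TEC transcripts, the non-coding higher members were 6 antisense transcripts, 8 pseudogenes, 4 lincRNAs and 5 of other classes. The widest separations of the higher set belonged to such transcripts, all of very low level. *Gm45278*, an antisense transcript on chromosome 7, was at 0.382, 0.173 and 0.376 CPM in the controls and at 2.56, 2.80, 0.866 and 2.68 CPM in B1, B7, B8 and B9, with only 7 counts in 1 of the libraries. The TEC transcript *Gm42572* was higher by 3.72-fold and the antisense transcript *Slain1os* 3.12-fold. *Gm28941* had the largest log2 ratio of all members, 3.03, with a mean of 0.244 ± 0.130 CPM in controls (SD, n = 3) against 1.98 ± 1.0 CPM in cKOs (SD, n = 4), and its lowest count was 5. For the antisense members, reads from both strands of a locus cannot be told apart if the counting ignored strand. Of 227 genes whose exons are wholly covered by exons on the other strand, 9 had 70 counts or more over the libraries, against 14380 of 34008 genes that overlap none. Whether counting without strand gave this low share was not tested, and the values of antisense and overlapping members are uncertain.

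The 2 sets differed in the length of their transcripts. The median exon length was 1542 bases in the lower and 3804 bases in the higher members, against 4040 bases over all genes that could have been selected. In genes with under 1 kb of exon sequence, 1.40% were lower and 0.525% higher members. The share of lower members then fell with each step in length, to 0.751% at 1 to 2 kb, 0.361% at 2 to 4 kb, 0.0527% at 4 to 8 kb and 0 of 2601 genes at 8 kb and over. The share of higher members showed no such slope and was 0.461% at 8 kb and over. Within protein-coding genes, the lower share was 0 of 211 genes under 1 kb, 0.383% at 1 to 2 kb and 0.0561% at 4 to 8 kb, while the higher share went from 0.153% at 1 to 2 kb to 0.469% at 8 kb and over. When a smooth trend of GC content and exon length was removed from each library, the rule gave 28 lower and 83 higher genes in place of 52 and 65, and 26 of the 52 lower and 50 of the 65 higher members still met it. All 52 still had a negative log2 ratio, with a median of −0.74 in place of −1.05. The part that transcript length or RNA quality has in the lower set was not tested further.

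**Figure D4:**
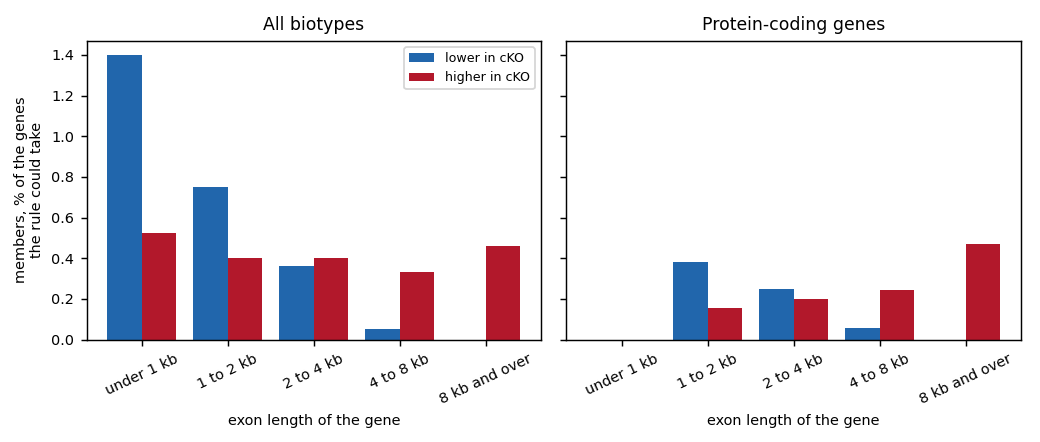
Share of the genes that could have been selected (vertical axes, %) that were lower (blue) or higher (red) members, by exon length of the gene (horizontal axes), for all biotypes and for protein-coding genes. The lower share falls from 1.40% under 1 kb to 0 at 8 kb and over for all biotypes, and the higher share stays between 0.334% and 0.525%.

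The share of members also depended on level. Among genes of 1 to 2 CPM, 1.03% were lower and 1.68% higher members, and among genes of 50 CPM and over, 0.0213% in each direction, that is *Fabp5* and *Peg10*. In these classes the margins of the rule were the same, while the counting error was larger in the weakly expressed genes.

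B8 was the cKO nearest to the controls in 48 of the 52 lower and 54 of the 65 higher members. Its shift from the controls was 0.487 (lower) and 0.528 (higher) of the mean log2 shift of B1, B7 and B9, as a median over members. It exceeded that of the other cKOs in 1 lower member, *Cckar*, and in 5 higher members, *Drc7* among them. The median log2 shifts of B1, B7, B8 and B9 were −1.15, −1.27, −0.60 and −1.37 in the lower set. In the higher set they were 1.37, 1.42, 0.75 and 1.5. Over all genes the medians of the cKO mice were −0.10 to 0.01. These medians describe libraries that the rule itself used, and a shift in B8 was needed for a gene to be a member.

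**Figure D5:**
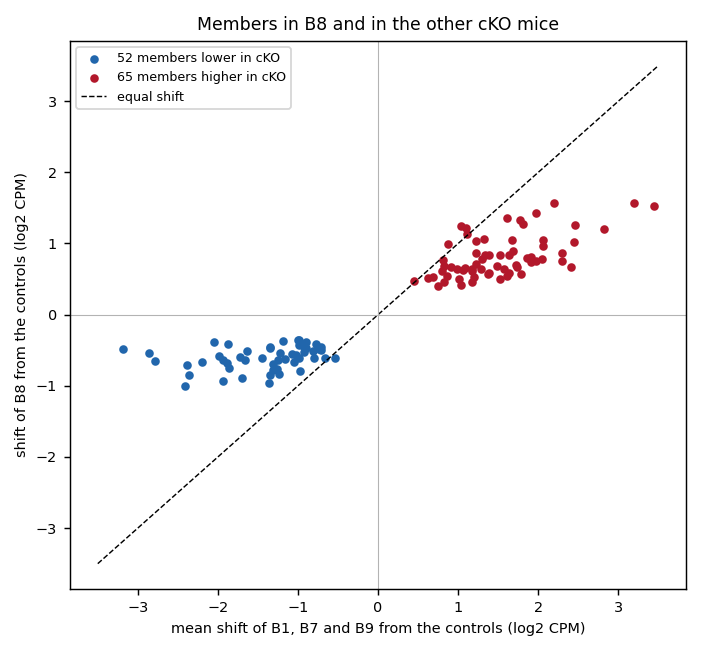
Shift of B8 from the control mean (vertical axis, log2 CPM) against the mean shift of B1, B7 and B9 (horizontal axis, log2 CPM), 1 point per member. The dashed line marks equal shifts. Nearly all points lie between the line and 0, with a median ratio of 0.487 in the lower and 0.528 in the higher set.

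The controls spanned a narrower range in the lower set, where they are the group of higher level, than in the higher set, where they are the group of lower level. The rule used these same values. The median over members of the lowest count was 44.5 in the lower and 23 in the higher set. How much of the difference in range is counting error was not tested. The median range of the 3 controls was 0.24 on the log2 scale in the lower and 0.63 in the higher members, and that of the 4 cKOs was 0.89 and 0.87. In 37 of the 65 higher members A4, the P3 mouse, was the lowest control, while the highest was A2 in 28, A6 in 26 and A4 in 11 of them. The median log2 difference of A4 from the mean of A2 and A6 was −0.22 over the higher members. Over all genes the median log2 shift of A4 from the control mean was −0.01, and the share of genes with A4 lowest was not determined. A4 had 40411968 counts on genes, against 23588248 in A2 and 26577011 in A6. In A4 33.1% of read pairs fell on no single gene, against 37.3% and 38.2%. Age and these library differences cannot be told apart for A4. In the lower set the lowest control was A2 in 27, A4 in 15 and A6 in 10 of 52 members.

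Mice of different age could be compared within the cKOs, which hold 2 mice at P2 (B7 and B9) and 2 at P4 (B1 and B8). The libraries of B7 and B9 were also deeper, with 67792192 and 87572085 counts on genes against 28116582 and 39251318 in B1 and B8. In B7 and B9, 31.8% and 31.0% of read pairs fell on no single gene, against 37.9% and 37.5% in B1 and B8. Age cannot be told apart from these library differences. With the quasi-likelihood test of edgeR, 0 of the 22725 genes tested passed an adjusted p of 0.05 for age (0%), and 15.7% had an unadjusted p under 0.05. Of the members, 12 lower and 9 higher had an unadjusted p under 0.05, all 12 with the P2 mice lower and all 9 with the P2 mice higher. The age contrast uses the cKO values on which the members were selected, with B8, the cKO nearest to the controls in most members, on the P4 side. The direction of these counts therefore follows in part from the selection. The smallest Benjamini-Hochberg adjusted p of a member in edgeR was 0.298. DESeq2 called 1.73% of the genes it adjusted, and among the members it called *Gm48182* (lower), *Gm15478* and *Tll1* (both higher). *Tll1* was at 6.45 and 6.3 CPM in B7 and B9 and at 3.52 and 2.24 CPM in B1 and B8.

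The median log2 difference between P2 and P4 cKO mice was −0.43 in the lower and 0.44 in the higher set, against −0.01 over all genes tested. This age contrast includes B8 on the P4 side. Against B1 alone, the mean of the P2 mice differed by a median of −0.29 in the lower and 0.13 in the higher set, and against B8 alone by −0.66 and 0.68. Over all genes, the median log2 shift from the controls was −0.10 in B7 and −0.06 in B9, against −0.04 in B1 and 0.01 in B8. From the P4 mice alone (A2, A6, B1 and B8), the median log2 ratios of the members were −0.87 and 1.00. Their direction there follows from the rule, which already held for each of these mice, and says nothing about age. In all, 162 lower and 165 higher genes met the rule in the P4 mice.

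In the fits across all genes, edgeR called 1 gene for genotype, *Brn3b* (0.00458% of 21817 genes), and therefore 0 of the 117 members. An unadjusted p under 0.05 was found for 13.7% of all genes in the lower and 16.7% in the higher direction, and for 51 of the 52 lower and all 65 higher members. DESeq2 called 43 lower and 59 higher members, against 3.04% and 7.41% of the genes it adjusted. The members were selected on the same contrast, so these counts only describe how the tools treat genes of this kind.

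The members were scattered over the genome. The share of selectable genes that were members ran from 0 of 657 on chromosome 13 to 1.32% on chromosome 7, which held 9 lower and 9 higher members. Few were neighbours: 7 pairs lay within 500 kb of each other. *Gm43859* and *Gm42967* on chromosome 3 were 0.638 kb apart on the same strand and both higher. *Dcst1* and the antisense transcript *4731419I09Rik* on chromosome 3 were 2.39 kb apart and both higher. *Mri1* and *C330011M18Rik* on chromosome 8 were 183 kb apart and went in opposite directions, lower and higher. They were also the only members within 10 Mb of *Pou4f2*, at 5819 and 5631 kb. *C330011M18Rik*, an antisense transcript, was at 0.551, 0.891 and 0.978 CPM in the controls and 2.03, 2.48, 1.22 and 2.55 CPM in B1, B7, B8 and B9, the closest of the higher members to the limit of 1.25. Just outside it lay *Gm5830*, with a lowest cKO value of 3.03 CPM against a highest control value of 2.45 CPM.

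Members were looked for on gene lists of the tissue. Lists of tectal and midbrain transcription factors (45 genes), neuropeptides and their receptors (23), transmitter genes (17), genes of retinal ganglion cells (30), immediate early genes (13) and cell death genes (15) held 0 members in either direction. Of all selectable genes, 0.316% were lower and 0.395% higher members. At these shares lists of such sizes would mostly hold none, so their lack of members says little about these genes. The rule barred *Tac2*, which is on the neuropeptide list and was at 1.61, 1.83 and 0.903 CPM in the controls and 0.320, 0.0885, 0.229 and 0.126 CPM in the cKOs, a mean of 0.730 CPM that was also under the limit of 1. The marker lists of other cells and regions that were not added after the members were seen also held 0 members. Genes of the labelled tissue were present in every library. Neuronal markers summed to 5196 to 5819 CPM in controls and 4174 to 5274 CPM in cKOs, and microglial markers to 119 to 179 CPM and 80.4 to 130 CPM. In both lists the highest cKO was B8, which lay within the control range, and B1, B7 and B9 lay below every control. The neuronal sum is mostly *Stmn2* and *Tubb3*. *Stmn2*, *Tubb3*, *Snap25* and *Rbfox3* had log2 ratios of −0.32, −0.53, −0.23 and −0.61. *Syt1*, *Slc17a6*, *Gad1* and *Gad2* had ratios of 0.21, 0.18, 0.13 and 0.60, and the neuronal median was −0.05. The microglial median was −0.81, with *Cx3cr1* and *P2ry12* higher in the cKOs and the other genes lower. Red blood cell markers summed to 136 to 492 CPM and 56.3 to 185 CPM, with B7 and B9 below every control. Astrocyte markers summed to 2380 to 2686 CPM and 2080 to 2553 CPM, and the dorsal midbrain genes to 868 to 973 CPM and 855 to 1274 CPM. B7 and B9 were below every control in the astrocyte sum and above every control in the dorsal midbrain sum. In the astrocyte list, *Fabp7*, *Gfap* and *Aldh1l1* had log2 ratios of −0.68, −0.31 and −0.21. *Aqp4*, *Slc1a3*, *Slc1a2* and *Sparcl1* had ratios of 0.44, 0.18, 0.71 and 0.66, and the list median was 0.18. The dorsal midbrain median was 0.30, with *Gata3* and *Otx2* lower in the cKOs and the other genes higher. *Prl* of the pituitary and *Tyr* of the eye were at 0 in every library. The part of these cells in the members' values was not tested.

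Promoters from RefSeq (GRCm38.p6) were matched by symbol to 21 lower members (23 promoters) and 33 higher members (33 promoters), each from 250 bases before to 50 after the start. The promoters were searched on both strands for ATAATTAAT, a site bound by POU4 factors, and for the homeodomain core TAATTA. The first was found in 0.283% and the second in 5.27% of 31396 autosomal promoters, and both in 0 of the members' promoters. This says only that the letters are not in these windows.

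The promoters of the members were also compared by their CG dinucleotides. In the 250 bases before the start, the median number was 10 in the lower and 8 in the higher protein-coding members, against 15 in all protein-coding genes that could have been selected. At least 10 were present in 10 of 16 promoters (62.5%) of the lower, 11 of 27 (40.7%) of the higher and 69.9% of the 13516 promoters of all such genes. The protein-coding members were also more weakly expressed, with a median of 4.26 CPM (lower) and 3.23 CPM (higher) against 27.9 CPM. The promoters were not matched for level. Promoters rich in CG belong mostly to genes that are active in many tissues. The 250 bases before the start are shown, 5′ to 3′ on the strand of the gene, for 2 members of each direction, with CG in capitals. Those of the lower set have 0 and 17 CG, and both of the higher set are at the low end of its range of 1 to 33. They are Gcat, chr15:79030624-79030873 (plus strand, 17 CG), Tnnc1, chr14:31208062-31208311 (plus, 0 CG), Sema3a, chr5:13396534-13396783 (plus, 2 CG, before the start used by RefSeq) and Drc7, chr8:95054853-95055102 (plus, 3 CG).
Gcat: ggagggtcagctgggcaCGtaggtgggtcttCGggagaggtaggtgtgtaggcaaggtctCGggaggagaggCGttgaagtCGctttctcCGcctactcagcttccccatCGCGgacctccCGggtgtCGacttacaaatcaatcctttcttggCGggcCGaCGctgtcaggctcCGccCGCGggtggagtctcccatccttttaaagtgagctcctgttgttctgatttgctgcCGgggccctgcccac
Tnnc1: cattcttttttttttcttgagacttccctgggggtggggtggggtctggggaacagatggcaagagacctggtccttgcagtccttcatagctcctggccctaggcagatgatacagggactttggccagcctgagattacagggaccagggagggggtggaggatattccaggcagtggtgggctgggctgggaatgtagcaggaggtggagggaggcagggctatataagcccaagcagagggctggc
Sema3a: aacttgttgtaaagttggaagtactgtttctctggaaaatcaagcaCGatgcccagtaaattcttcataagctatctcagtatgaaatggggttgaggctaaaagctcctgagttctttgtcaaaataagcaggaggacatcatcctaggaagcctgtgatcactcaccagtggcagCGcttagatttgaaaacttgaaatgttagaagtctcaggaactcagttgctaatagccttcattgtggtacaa
Drc7: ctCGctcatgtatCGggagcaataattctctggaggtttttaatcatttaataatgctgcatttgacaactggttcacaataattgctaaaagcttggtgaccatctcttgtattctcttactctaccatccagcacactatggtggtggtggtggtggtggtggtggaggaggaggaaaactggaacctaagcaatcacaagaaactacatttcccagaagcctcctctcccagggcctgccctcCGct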

How the data were processed

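Dorsal midbrains of 3 control and 4 *Brn3b* cKO mice were sequenced by the authors as strand-specific polyA libraries with 100 bp paired reads. Per the labels and the study's methods, trimmed reads were aligned by the authors with TopHat2 and Bowtie 2 (GRCm38.p5), and HTSeq counted them per gene of GENCODE vM15. What they deposited are these raw counts, and the strand setting of the counting is not given in the sources used here. Genotype came from the labels, and the genotypes share no replicate numbers. The sources used here name no batch.

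CPM was computed as 1000000 times the count over the total of gene counts. The rule, its limits and the lists were chosen with earlier results of these data known, and the lists of motile cilia, T cells, gamma-secretase, semaphorin 3A receptors, cholecystokinin and slow muscle were added after the members were seen. Named genes were, per direction, the 12 protein-coding members with the widest gap between the groups, the 5 further protein-coding members of highest mean CPM, the 3 other members of widest gap, members on lists and members within 10 Mb of *Pou4f2*. Members outside this rule were chosen for known role, class or position with their values in view. Symbols, positions and exon lengths came from GENCODE vM21 (52489 of 52636 identifiers matched).

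The genotype and age fits used edgeR 4.0.16 (filterByExpr with minimum count 10 and total 15, TMM, glmQLFit, glmQLFTest) and a Benjamini-Hochberg adjusted p under 0.05. DESeq2 1.42.0 and limma 3.58.1 (voom) were alternatives, and the trend of GC content and exon length was fitted with mgcv 1.9.3 in R 4.3.3. Further alternatives were other scalings, mean CPM limits and margins, thinned counts, P4 mice only and leaving out each mouse. No pair of libraries of a group agreed within sampling noise (lowest chi-square over its degrees of freedom 8.37), so each was 1 replicate. The rule and the tests were tested on simulated data.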

Additional observations from a re-analysis of the deposited data

Results flagged for a closer look

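In 3 of the 70 members named in the text or examined with them, 1 cKO mouse lay far from the other 3, by Dixon's test of the gap over the range. Chance gives about 1 in 20. *Xkr7* was at 8.79 CPM in B8, against 12.7 to 12.8 CPM in the other cKO mice. *Gm45278* was at 0.866 CPM in B8, against 2.56 to 2.80 CPM. *Pdzd9* was at 0.747 CPM in B1, against 1.05 to 1.07 CPM. In *Xkr7* and *Gm45278* the mouse apart was the cKO nearest to the controls, and in *Pdzd9* it was the farthest from them. No cause was tested.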

How the results depend on the processing

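No paired analysis was possible because control and cKO mice carry different numbers in the labels. The rule gave 52 lower and 65 higher genes. With counts thinned to the smallest library it gave 79 lower and 79 higher genes, and with the trend of GC content and exon length removed 28 and 83. At a mean of at least 5 CPM it gave 12 and 14 genes, with no limit on the mean 305 and 477, at a margin of 0.7 14 and 18, at a margin of 0.9 215 and 228, and from P4 mice only 162 and 165 genes. With 1 mouse left out, counts ran from 61 to 2987 lower and from 73 to 2267 higher genes, the largest without B8. TMM library sizes gave 56 and 71 genes and DESeq2 size factors 62 and 63, of which 51 and 63, and 50 and 58, were members. Thinned counts kept 34 and 41 of the members. The genotype fit of edgeR called 1 gene, DESeq2 1994, and edgeR without 1 mouse 1 to 9867, the largest without B8 (alternatives chosen after seeing the data). The age fit called 0 genes, as did limma-voom and RLE factors, whereas DESeq2 called 309 and a filter of at least 1 count in any cKO library 1273. Without 1 cKO mouse, age calls ran from 25 to 8237, the most without B1; the lone mouse of an age is then assumed to vary like the others. No log2 ratio of the 70 members examined changed sign with the trend removed; with TMM or DESeq2 scaling and with fewer mice the gap the rule asks for fixes the sign. The ratio moved by more than the replicate SD in 19 of them with the trend removed, in 14 with P4 mice only and in 2 without A2. Depth limits the members of low level: 19 lower and 37 higher members had under 30 counts in some library.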
